A study of Homo sapiens with 36 samples.

Results

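The peaks described here are those of TET1 on the mitochondrial genome and on the sequences of the human build hg19 that lie outside the assembled chromosomes. They were chosen by sequence name alone: every deposited peak whose sequence was not chromosome 1 to 22, X or Y. This gave 379 of 62066 peaks, in 3 classes that were kept apart. The mitochondrial sequence (chrM) held 112 of them, unplaced sequences (chrUn) and sequences assigned to a chromosome without a position (random) held 145, and alternative haplotype sequences held 122.

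HEK293T cells, an established human line of embryonic kidney origin, received 1 of 6 small interfering RNAs (siRNAs), and TET1 was then mapped by chromatin immunoprecipitation and sequencing. siCHD3, siCHD4, siCHD5, siMBD2 and siMBD3 carry gene names, and siNC, which does not, served here as control; no other treatment, genotype or time separates the groups in the labels. Every siRNA has 3 pull-down and 3 input libraries, and its single peak list carries the 3 replicate numbers together, so no list has a spread between replicates and no difference between lists was tested. The level of the targeted proteins was not analysed here.

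TET1 is a dioxygenase that oxidises 5-methylcytosine in nuclear DNA, and CHD3, CHD4, CHD5, MBD2 and MBD3 are subunits of NuRD, a nuclear complex that joins nucleosome remodelling to histone deacetylation. Mitochondrial DNA is a small circle without nucleosomes, present in many copies per cell, so it is abundant in whole-cell and in many nuclear preparations. Unplaced and random sequences often hold satellite, ribosomal or duplicated DNA, of which the assembly carries fewer copies than the cell does. Alternative haplotypes are alternative versions of regions that the main chromosomes also contain, among them the major histocompatibility complex on chromosome 6, so a read from such a region can match several sequences equally well.

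The 6 lists fell into long and short ones. siNC held 28450 peaks and siCHD5 32749, against 140 in siCHD3, 110 in siCHD4, 358 in siMBD2 and 259 in siMBD3. A deposited peak with several summits is listed once per summit, and such repeats were counted as peaks and, separately, merged into distinct intervals. Fold enrichment, which sets the pull-down at a summit against its control background, and the −log10 q-value, the caller's adjusted measure of that excess, are the authors' values. From the fold and the p-value of each peak the number of pull-down fragments at the summit and the control background were recovered for 100% of the 379 peaks. The lowest control background of a list was between 1.83 and 2.80 fragments in the 6 lists. On the chromosomes 5043 siNC peaks and 6989 siCHD5 peaks had this same lowest value of their list. It was therefore taken as a floor, and a fold over it is not a ratio to a measured local control.

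The 3 classes were spread over the lists in different ways. Mitochondrial peaks stood in siCHD3, siCHD4, siMBD2 and siMBD3, and neither siNC nor siCHD5 held one. Haplotype peaks stood in siNC and siCHD5, and none of the 4 shorter lists held one. Unplaced and random sequences carried peaks in all 6 lists. The 3 classes together made up 45 of 140 siCHD3 peaks (32.1%), 32 of 110 siCHD4 peaks (29.1%), 38 of 358 siMBD2 peaks (10.6%) and 38 of 259 siMBD3 peaks (14.7%). They made up 103 siNC peaks (0.362%) and 123 siCHD5 peaks (0.376%).

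**Figure D1:**
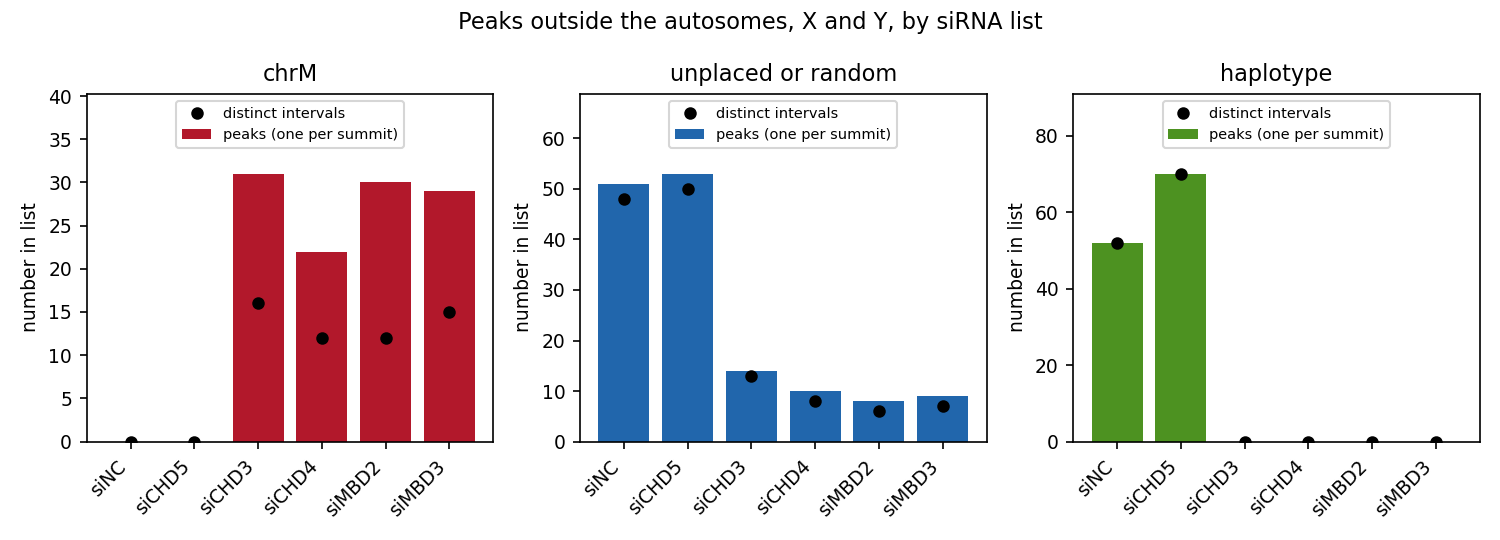
Number of peaks on the mitochondrial sequence, on unplaced or random sequences and on alternative haplotypes in each of the 6 siRNA lists; bars count peaks, 1 per summit, and points count distinct intervals. The 4 shorter lists held 22 to 31 mitochondrial peaks and no haplotype peak, and siNC and siCHD5 held 52 and 70 haplotype peaks and no mitochondrial peak.

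Mitochondrial peaks were the largest of the classes in each of the 4 shorter lists. The siCHD3 list held 31, which was 22.1% of its peaks (exact Clopper-Pearson 95% interval 15.6% to 29.9%), in 16 distinct intervals. The siCHD4 list held 22 (20.0%, 13.0% to 28.7%) in 12 intervals. The siMBD2 list held 30 (8.38%, 5.73% to 11.7%) in 12 intervals, and the siMBD3 list held 29 (11.2%, 7.63% to 15.7%) in 15. In number of peaks the 4 lists therefore lay close together, and their shares differed mainly with the length of the list. The count of 0 among 28450 siNC peaks allows a share of up to 0.0105%, and that among 32749 siCHD5 peaks up to 0.00916%. These intervals and limits cover counting error only.

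Enrichment over control on chrM was slight in every list that held it. The siCHD3 peaks had a median fold of 1.21 (range 1.10 to 1.45) and the siCHD4 peaks one of 1.18 (1.08 to 1.33). The siMBD2 median was 1.19 (1.10 to 1.29) and the siMBD3 median 1.17 (1.09 to 1.31). Over whole lists the median fold was 1.53, 1.44, 4.60 and 4.13 in the same order, so the mitochondrial folds lay below the list median in all 4. Depth on chrM was high in pull-down and control alike. The median summit held 3587 pull-down fragments against a control background of 2842 in siCHD3, and 4400 against 3730 in siCHD4. In siMBD2 it held 2829 against 2398, and in siMBD3 3498 against 2965.

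The control background on chrM was a near-constant multiple of the lowest background of its list. The median mitochondrial control was 1243 times that value in siCHD3, 1373 times in siCHD4, 1314 times in siMBD2 and 1341 times in siMBD3. The pull-down median was 1569, 1620, 1550 and 1582 times the same value. The slight folds stood beside high −log10 q-values, with a median of 19.7 in siCHD3, 20.7 in siCHD4, 13.2 in siMBD2 and 12.1 in siMBD3. Control backgrounds of 1000 or more also occurred under peaks on the chromosomes, at 8 peaks of siNC and 9 of siCHD5. siCHD3, siCHD4, siMBD2 and siMBD3 had 11, 10, 10 and 8 such peaks. The highest control under a chromosome peak was 9361 in siNC and 5054 in siCHD5, above the 4388 that was the highest on chrM in any list. In the 4 shorter lists it was 4070, 9337, 3415 and 8053, in the same order. The chrM coverage of siNC and siCHD5 was not analysed here, and the part of input depth in their lack of chrM peaks was not tested.

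**Figure D2:**
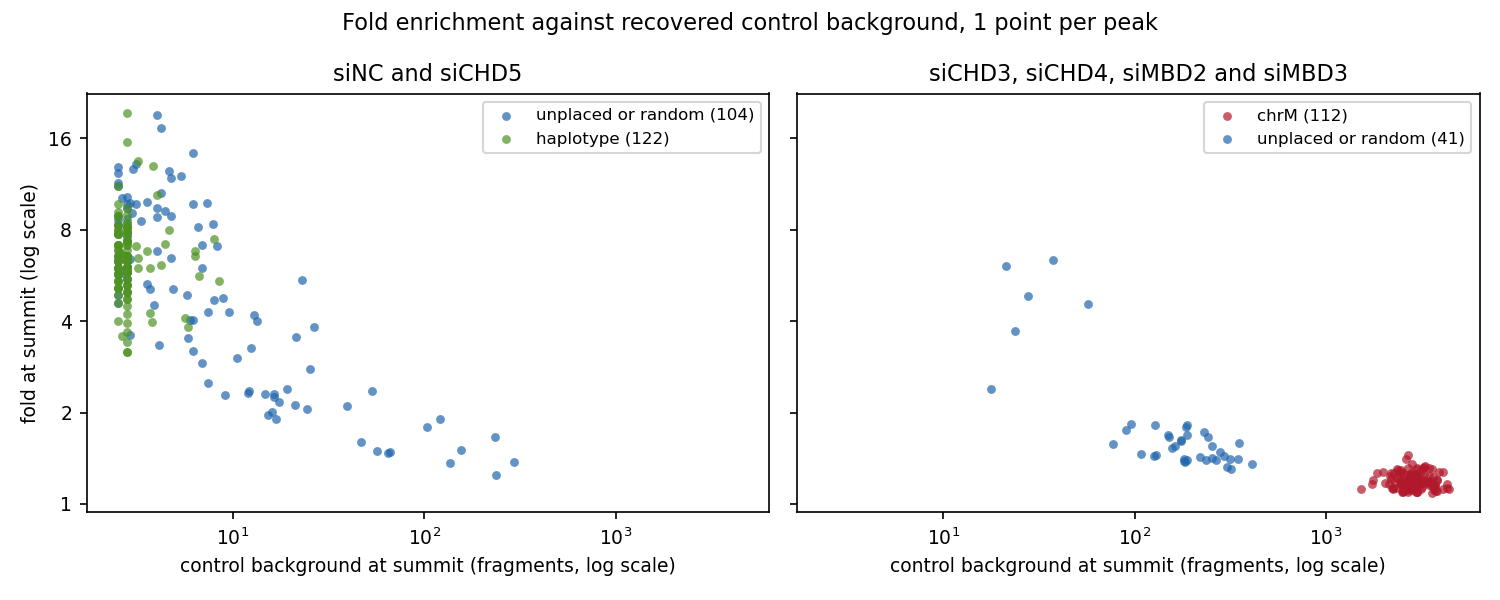
Fold enrichment at the summit against control background at the summit, both on log scales, for each peak, coloured by class, with siNC and siCHD5 in the left panel and the 4 shorter lists in the right. Mitochondrial peaks sit at control backgrounds of 1519 to 4388 fragments and folds of 1.08 to 1.45, and haplotype peaks at backgrounds of 2.50 to 8.42 and folds of 3.15 to 19.5.

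Mitochondrial intervals of the 4 lists fell largely at the same places, though their edges and splits differed at some. Joined over lists, they formed 13 stretches between the first covered base at 617 and the last at 16018, a span of 15402 bp. Of the 13 stretches, 10 carried a peak in all 4 lists, 1 in 3 lists and 2 in 2 lists, and none stood in a single list. Peaks of at least 1 list covered 9562 bp, or 62.1% of the span, and 6552 bp (42.5% of the span) were covered in all 4. The single lists covered 8408 bp in siCHD3, 7245 bp in siCHD4, 8351 bp in siMBD2 and 8269 bp in siMBD3. All the other 3 shorter lists had a peak, by 1 bp or more, at 26 of 31 mitochondrial peaks of siCHD3, 21 of 22 of siCHD4, 29 of 30 of siMBD2 and 26 of 29 of siMBD3. The same held for 48.6%, 58.2%, 18.4% and 26.3% of all peaks in those lists, so the mitochondrial peaks recurred more often than the lists as a whole, by counts alone. With an overlap of 50% of both peaks required, the counts fell to 19 of 31, 18 of 22, 16 of 30 and 18 of 29, against 42.1%, 51.8%, 14.0% and 21.2% of the lists. The siMBD2 count thus moved the most, in the list whose intervals were widest at the median. With 47.0% to 54.6% of the span covered in every list, some overlap follows from coverage, and that part was not measured.

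Single summits lay close together across the lists. The median distance from a summit to the nearest summit of another list was between 9.5 and 19.5 bp over the 12 ordered pairs of lists. Within 50 bp, siCHD3 held a summit for 22 of 22 siCHD4 summits, and the least complete pair was siMBD2 against siCHD4, with 19 of 30. Summit distances were not taken over all peaks of the lists, so this closeness is not shown to be particular to chrM. Some interval edges were the same base: the start at 5788 was shared by siCHD3, siCHD4 and siMBD2, and the end at 8244 by siCHD3, siCHD4 and siMBD3. The intervals were called on separate libraries, so positions recurred between lists that share no sample in the labels.

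**Figure D3:**
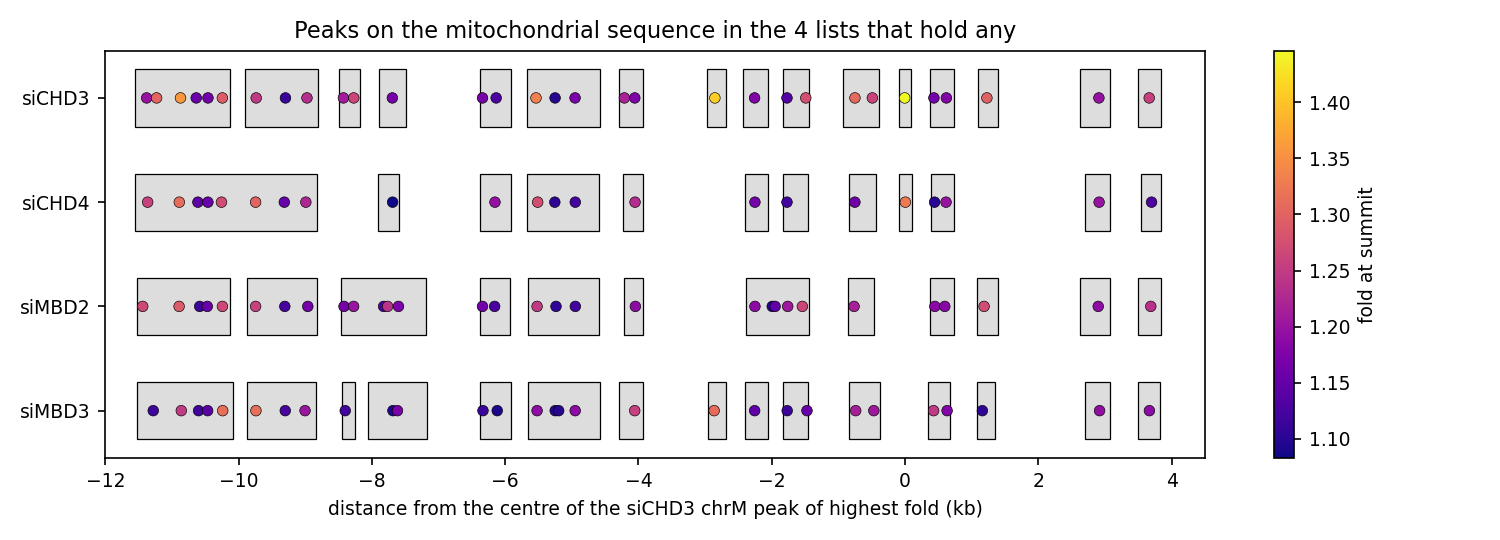
Intervals (boxes) and summits (points, coloured by fold) on the mitochondrial sequence in siCHD3, siCHD4, siMBD2 and siMBD3, drawn to scale by distance in kb from the centre of the siCHD3 peak of highest fold. All 4 rows hold a box at 10 of 13 stretches, though its edges can differ between rows, and folds run from 1.08 to 1.45.

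The stretch from 617 to 3358 was the widest. In siCHD4 it was 1 interval of 2726 bp with 8 summits, the widest interval of any of the 3 classes. In siCHD3 it was split into 617 to 2039 and 2273 to 3358, with 9 summits in all, and siMBD2 and siMBD3 were split at nearly the same bases, with 8 summits each. Its highest fold was 1.36 in siCHD3, 1.31 in siCHD4, 1.29 in siMBD2 and 1.31 in siMBD3. A region from 642 to 2038 was covered without a break in all 4 lists (1397 bp), as were 6522 to 7578 (1057 bp) and 2296 to 3336 (1041 bp). In the usual gene order of human mitochondrial DNA both ribosomal RNA genes come first after the control region. An annotation of the sequence used for these files was not used here, so the peaks were not assigned to genes.

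The stretch from 6501 to 7590 was a single interval in all 4 lists. Its highest fold was 1.33 in siCHD3, 1.27 in siCHD4, 1.25 in siMBD2 and 1.19 in siMBD3. The stretch from 3673 to 5004 varied most in extent. It was a single 312 bp interval of fold 1.08 in siCHD4, the lowest fold of any mitochondrial peak, and a 1276 bp interval with 5 summits and a highest fold of 1.24 in siMBD2. siCHD3 and siMBD3 had 2 intervals each there, with highest folds of 1.26 and 1.17.

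The highest folds of siCHD3 and siCHD4 on chrM lay in a narrow peak that was not in every list, while the highest of siMBD2 and siMBD3 lay in the wide stretch from 617 to 3358. The siCHD3 peak from 12080 to 12264 had the highest fold on chrM, 1.45, with 3884 pull-down fragments against 2685 in control and a −log10 q of 97.3. siCHD4 had it at 12088 to 12275 with a fold of 1.33 and a −log10 q of 63.8, also the highest of its list on chrM. siMBD2 and siMBD3 had no peak there. The peak from 9202 to 9481 had a fold of 1.41 in siCHD3 and 1.31 in siMBD3 and was absent from siCHD4 and siMBD2. The stretch from 13246 to 13575 had folds of 1.30 in siCHD3, 1.27 in siMBD2 and 1.11 in siMBD3 and no peak in siCHD4. siCHD3 was thus the only list with a peak in each of the 13 stretches, and siMBD2 and siCHD4 had 11 each.

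The remaining 7 stretches were in all 4 lists and were between 356 and 991 bp wide. At 5788 to 6262 the highest fold was 1.17, 1.20, 1.16 and 1.11 in siCHD3, siCHD4, siMBD2 and siMBD3. At 7874 to 8247 it was 1.22, 1.23, 1.19 and 1.26, and at 9738 to 10728 it was 1.28, 1.17, 1.26 and 1.15. These orders of the lists differ from stretch to stretch. At 11249 to 11791 the folds were 1.31, 1.16, 1.22 and 1.21, and at 12514 to 12909 they were 1.18, 1.20, 1.19 and 1.25. The stretch from 14795 to 15251 had the most even folds, 1.20, 1.20, 1.19 and 1.19. The last stretch, 15663 to 16018, had folds of 1.26, 1.13, 1.24 and 1.19, and no peak of any list lay beyond it.

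The order of the stretches by highest fold was compared between lists, as a description over stretches that share their libraries. With 10 to 12 stretches for each pair of lists, no grouping of the lists is drawn from it. Spearman's rho was 0.85 between siCHD3 and siMBD2 (11 stretches) and 0.62 between siCHD4 and siMBD3 (10 stretches). It was 0.39 between siCHD3 and siCHD4, 0.34 between siCHD3 and siMBD3, 0.08 between siCHD4 and siMBD2 and −0.13 between siMBD2 and siMBD3. The order of the folds thus varied between pairs of lists, at stretches that both lists of a pair held.

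The mitochondrial sequence also had 12 gaps between stretches without a peak in any list. The longest ran from 13576 to 14794 (1219 bp), and the next from 8248 to 9201 (954 bp), 5005 to 5787 (783 bp) and 10729 to 11248 (520 bp). Peak-free bases made up 37.9% of the span. The files give no value for these gaps.

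Mitochondrial intervals were wide. Distinct intervals had a median width of 385.5 bp in siCHD3, 363.5 bp in siCHD4, 451 bp in siMBD2 and 383 bp in siMBD3, and ranged from 185 bp to 2726 bp. Over distinct intervals of the whole lists the medians were 304.5, 312, 310 and 304.5 bp. Counted per peak, so that an interval with several summits counts once for each, the mitochondrial medians were 475, 778, 1049 and 463 bp. Intervals with more than 1 summit were 9 of the 16 intervals of siCHD3, 3 of the 12 of siCHD4, 7 of the 12 of siMBD2 and 8 of the 15 of siMBD3.

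**Figure D4:**
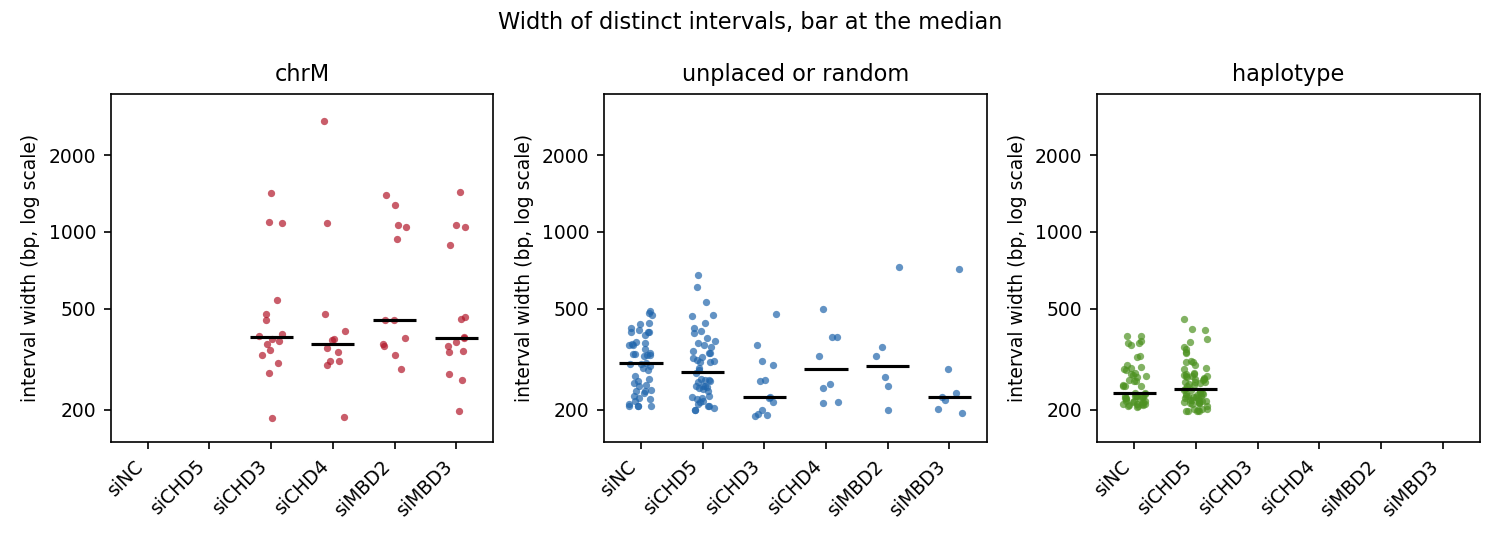
Width in bp (log scale) of each distinct interval on the mitochondrial sequence, on unplaced or random sequences and on haplotypes, by list, with a bar at the median. Mitochondrial medians sit between 363.5 and 451 bp and reach 2726 bp, and haplotype medians sit at 232.5 and 241 bp and reach 456 bp.

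The same 4 lists had peaks in a stretch of chromosome 1 that is known as a nuclear copy of mitochondrial DNA, which was looked at after its values were seen and is not among the 379 peaks. Peaks were sought from 560 to 570 kb on hg19, and those found lay between 564732 and 566685. The extent of the copy itself was not determined here. siCHD3 had 4 peaks there (folds 1.30 to 1.48), siCHD4 2 (1.49 and 1.61), siMBD2 2 (1.50 and 1.63) and siMBD3 1 (1.42), and siNC and siCHD5 had none. Control backgrounds under these peaks were 296 to 829 fragments, lower than on chrM and far above the lowest of each list. The presence and absence of peaks there went with that on chrM in all 6 lists. A read of either origin can match both sequences, and the part of shared reads was not tested.

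Unplaced and random sequences showed 2 kinds of peaks. In siNC and siCHD5 most had folds above 2 over shallow control, while in the 4 shorter lists most had folds below 2 over deep control. The siNC list held 51 (0.179%, 0.134% to 0.236%) and siCHD5 53 (0.162%, 0.121% to 0.212%). The siCHD3 list held 14 (10.0%, 5.58% to 16.2%), siCHD4 10 (9.09%, 4.45% to 16.1%), siMBD2 8 (2.23%, 0.970% to 4.36%) and siMBD3 9 (3.47%, 1.60% to 6.49%). Peaks on chrUn sequences numbered 29, 28, 8, 7, 4 and 6 in siNC, siCHD5, siCHD3, siCHD4, siMBD2 and siMBD3, and those on random sequences 22, 25, 6, 3, 4 and 3. Neither kind was confined to the long or the short lists.

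Fold and background differed between the long and the short lists in this class. The median fold was 5.11 in siNC (range 1.25 to 17.3) and 5.45 in siCHD5 (1.47 to 19.0). The siCHD3 median was 1.54 (1.40 to 2.40), the siCHD4 median 1.51 (1.31 to 1.84), the siMBD2 median 1.62 (1.38 to 6.36) and the siMBD3 median 1.66 (1.32 to 4.83). The median control background was 6.59 fragments in siNC and 5.76 in siCHD5, against 187, 268, 127 and 152 in siCHD3, siCHD4, siMBD2 and siMBD3. The median for the 4 shorter lists stood 68.7 to 98.6 times above the lowest background of the list, and that for siNC and siCHD5 2.64 and 2.05 times. Peaks on the chromosomes had median controls of 291.5 in siCHD3 and 339.3 in siCHD4, with median folds of 1.66 and 1.55. In siMBD2 and siMBD3 their median controls were 2.33 and 3.12, with median folds of 4.85 and 4.36. Deep control and low fold were thus not particular to this class in siCHD3 and siCHD4. Lower fold went with deeper control, and the part of control depth in the fold was not tested.

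A pair of sequences carried most of the short-list peaks. Of the 41 unplaced or random peaks in the 4 shorter lists, 34 lay on chr9_gl000199_random and chrUn_gl000226, with folds of 1.31 to 1.84 over control backgrounds of 89.9 to 410. Another 6 lay on chrUn_gl000212 and 1 on chrUn_gl000228. siNC and siCHD5 together had 8 of 104 on the first pair of sequences, with a median fold of 1.49, and 93 on 23 sequences other than these and chrUn_gl000212, with a median fold of 5.98. On the pair of deep sequences the long lists therefore had low folds like those of the short ones, and the high folds came from elsewhere.

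Peaks on chr9_gl000199_random, a sequence assigned to chromosome 9 without a position, numbered 4 in siNC, 3 in siCHD5, 6 in siCHD3, 3 in siCHD4, 4 in siMBD2 and 3 in siMBD3. It held the only region of the 3 classes with a peak in all 6 lists, at 136920 to 137274. At summits between 136980 and 137028 the fold was 1.25 in siNC, 1.66 in siCHD5, 1.79 in siCHD3, 1.66 in siCHD4, 1.55 in siMBD2 and 1.40 in siMBD3. The control background there was 236 fragments in siNC, 236 in siCHD5, 186 in siCHD3, 241 in siCHD4, 163 in siMBD2 and 188 in siMBD3. siNC alone had another summit in this region, at 137247, with a fold of 1.51 over 155 fragments. Among the first-named summits siNC had the lowest fold of the 6 lists, but its summit lay at 137028 and the others at 136980 to 137000. By the highest fold in the region siMBD3 was lowest, at 1.40 against 1.51 in siNC. The order of the lists thus depends on the siNC summit taken, with no replicate check. Another region of the same sequence, 51127 to 51403, had peaks in siNC (1.37), siCHD4 (1.84), siMBD2 (1.82) and siMBD3 (1.66), and siMBD3 alone had one at 141403 to 141626 (1.75). The peak at 156350 to 156548 had a fold of 1.69 in siMBD2 and a counterpart in siCHD3 of 1.61.

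On chrUn_gl000226 siNC held 1 peak, siCHD5 none, siCHD3 6, siCHD4 7, siMBD2 2 and siMBD3 3. Its region at 7260 to 7538 was shared by siNC (1.37), siCHD3 (1.40), siCHD4 (1.31) and siMBD3 (1.40). The highest fold on it was 1.82, in siCHD3 at 12415 to 12675, followed by 1.72 in siCHD4 at 4127 to 4513. The siCHD3 interval was in no other list, and siMBD2 overlapped the siCHD4 one with folds of 1.44 and 1.38. The widest interval of the class in siCHD3 (477 bp, 4990 to 5466) and in siCHD4 (500 bp, 14313 to 14812) also lay on this sequence.

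The region of chrUn_gl000212 from 40542 to 41271 had its highest folds in the siMBD2 and siMBD3 lists, and siCHD4 had no peak there. Its summits fell at matching places and were compared place by place, except that siMBD3 alone had a further summit at 41122 (3.70, 90 against 23.6). At the summit between 40625 and 40644, siMBD2 had a fold of 6.06 (134 pull-down fragments against 21.3 in control) and siMBD3 one of 4.83 (137 against 27.6). At the same place siCHD5 had 2.78 (72 against 25.3), siCHD3 2.40 (44 against 17.8) and siNC 2.12 (46 against 21.1). In fragments not scaled for depth, the pull-down there was level in siMBD2 and siMBD3 and lower in the other 3 lists. Control backgrounds were 17.8 to 27.6 fragments. At the summit between 40871 and 40881 the fold was 6.36 in siMBD2 (244 against 37.6), 4.55 in siMBD3 (265 against 57.4) and 2.36 in siCHD5 (127 against 53.2), and siNC and siCHD3 had no summit. The siMBD3 pull-down, in fragments not scaled for depth, was the highest at that place, and so was its recovered control background. The lowest control background of the list was 1.83 in siMBD2 and 2.21 in siMBD3, so these fragment counts do not rank the lists. Replicates were pooled, so whether the difference exceeds their spread could not be tested. Its interval was wider in the 2 lists of higher fold, at 730 and 717 bp against 606 bp in siCHD5, 347 bp in siNC and 299 bp in siCHD3.

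The strongest unplaced and random peaks belonged to siNC and siCHD5. The siNC list had its highest fold at chr7_gl000195_random, 103212 to 103683, with a fold of 17.3 (89 fragments against 4.20), and siCHD5 had 14.3 at 103236 to 103589. The siCHD5 list had its highest at chrUn_gl000220, 93490 to 93929, with a fold of 19.0 (94 fragments against 3.99), and siNC had 11.8 there. That sequence is known to carry ribosomal DNA, and siNC held 4 peaks on it and siCHD5 3. Both lists thus had peaks at the same top regions, with the order of the folds reversed between these 2. Next came chr17_gl000204_random at 58560 to 59050 (12.9, 491 bp) and chrUn_gl000228 at 52828 to 53238 (12.7) in siNC, and chr11_gl000202_random at 7219 to 7750 (13.2) in siCHD5. The widest siCHD5 interval, 675 bp on chrUn_gl000214 at 64471 to 65145, had a fold of 3.61.

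Unplaced and random peaks were found again in the other long list less often than the lists as a whole. Of 51 siNC peaks, 33 (64.7%, 50.1% to 77.6%) overlapped a siCHD5 peak, against 85.4% of all siNC peaks. Of 53 siCHD5 peaks, 33 (62.3%, 47.9% to 75.2%) overlapped a siNC peak, against 74.5% of all siCHD5 peaks. The interval leaves out the value of the list for siNC and holds it for siCHD5. Peaks are not replicates, and some are summits of the same interval, so this is a description and no test. The overlapping peaks had the higher folds: their median was 7.12 against 2.88 for the rest in siNC, and 8.82 against 3.82 in siCHD5. Fold thus moved with overlap, and its part in the lower share was not tested.

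Between long and short lists the overlap in this class ran through a few deep regions. Of the 51 siNC peaks, 4 were overlapped by siCHD3, 4 by siCHD4, 4 by siMBD2 and 5 by siMBD3. Over all siNC peaks the same shares were 0.179%, 0.169%, 0.250% and 0.176%. By these counts, of 5 peaks or fewer each, a siNC peak on these sequences had a counterpart in a short list more often than a siNC peak in general. The counts depend on weak peaks: with a −log10 q of 5 or more required in both lists, the shares fell from 7.84% to 2.70% for siCHD3, siCHD4 and siMBD2, and from 9.80% to 0% for siMBD3. In the other direction siNC peaks overlapped 3 of 14 siCHD3 peaks, 3 of 10 of siCHD4, 4 of 8 of siMBD2 and 6 of 9 of siMBD3, against 37.9%, 46.4%, 20.7% and 22.0% of those lists. At least 1 other list overlapped 7 of 14 siCHD3 peaks, 6 of 10 of siCHD4, 8 of 8 of siMBD2 and 8 of 9 of siMBD3. The share over those whole lists was 84.3%, 91.8%, 65.1% and 83.0%. The exact intervals reached up to 77.0% for siCHD3 and 87.8% for siCHD4, and ran from 63.1% to 100% for siMBD2 and from 51.8% to 99.7% for siMBD3. They leave out the value of the list in siCHD3 and siCHD4, where it is higher, and hold it in siMBD2 and siMBD3, again as a description only. Summits of 1 interval overlap alike, and these peaks were 13, 8, 6 and 7 distinct intervals in the same order. The exact intervals are therefore too narrow to decide on a difference from the list.

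Joined over lists, unplaced and random peaks formed 82 regions. Of these, 44 stood in 1 list, 33 in 2, 1 in 3, 2 in 4, 1 in 5 and 1 in 6. Peaks of siNC and siCHD5 together, without a short list, marked 29 regions, siNC alone 15 and siCHD5 alone 19. The short lists alone marked 15, and 4 were shared between a long and a short list. Most regions therefore belonged to 1 kind of list. The same held for siNC peaks in general, of which each short list overlapped 0.169% to 0.250%, so this split is not particular to the class.

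Haplotype peaks were narrow peaks, mostly over the lowest background of their list, and were present in siNC and siCHD5 only. The siNC list held 52 (0.183%, 0.137% to 0.240%) and siCHD5 70 (0.214%, 0.167% to 0.270%), each with a single summit. A count of 0 in the short lists allows shares of up to 2.14% in siCHD3, 2.73% in siCHD4, 0.838% in siMBD2 and 1.16% in siMBD3. These limits all lie above the shares in siNC and siCHD5, so at the length of the short lists a share like that of the long ones would not have been detectable.

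The median fold on haplotypes was 6.38 in siNC (range 3.57 to 13.4) and 6.31 in siCHD5 (3.15 to 19.5). Medians over the whole lists were 6.73 and 6.91. Haplotype intervals had a median width of 232.5 bp in siNC and 241 bp in siCHD5, against 298 and 299 bp over distinct intervals of the lists. Summits held a median of 23 and 24 fragments, against 33 and 37 over the lists. The control background was the lowest of its list under 39 of 52 siNC peaks (75.0%) and 60 of 70 siCHD5 peaks (85.7%), against 17.8% and 21.4% of the peaks on chromosomes. Haplotype peaks thus lay at the floor of the recovered background more often than peaks on chromosomes did. Their local input is not known below that floor. How reads that match a haplotype and its chromosome were placed is not given in the sources used here, and its part in this background was not tested.

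By sequence, 7 haplotypes of chromosome 6, which are versions of the major histocompatibility complex, held 43 of the 52 siNC peaks and 56 of the 70 siCHD5 peaks. They held 4 to 10 peaks each in siNC and 3 to 14 in siCHD5. The most stood on chr6_ssto_hap7 (10 and 14) and chr6_cox_hap2 (8 and 11), followed by chr6_mcf_hap5 (7 and 7), chr6_apd_hap1 and chr6_dbb_hap3 (5 and 8 each), chr6_qbl_hap6 (4 and 5) and chr6_mann_hap4 (4 and 3). These 7 sequences are versions of 1 region, so their peaks are not separate places in the genome. Of the others, chr17_ctg5_hap1, the alternative form of the 17q21.31 inversion that holds MAPT, carried 8 siNC and 12 siCHD5 peaks, and chr4_ctg9_hap1 carried 1 and 2.

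The highest haplotype folds lay on chr17_ctg5_hap1. Its peak at 78022 to 78387 had a fold of 13.4 in siNC, from 55 fragments against 3.17, and in siCHD5 it ran from 78020 to 78475 with a fold of 19.5, from 73 against 2.80. That siCHD5 interval, of 456 bp, was the widest on any haplotype. The peak at 120559 to 120880 had a fold of 11.2 in siNC, and its siCHD5 counterpart, which began at 120547, had 15.5. Both were higher in siCHD5, with no replicate check. Another, at 493418 to 493694, had a fold of 13.0 in siCHD5 and 3.98 in siNC, where 18 fragments stood against 3.78 in control and siCHD5 had 62 against 3.84. On chromosome 6 haplotypes the highest fold was 9.72 in siNC, on chr6_mcf_hap5 at 973428 to 973792, and 10.4 in siCHD5, on chr6_cox_hap2 at 174124 to 174475. The widest siNC interval was 390 bp, on chr6_cox_hap2 at 176316 to 176705, with a fold of 6.12. Median folds were 6.29 on the chromosome 6 haplotypes and 7.42 on chr17_ctg5_hap1 in siNC, and 6.31 and 6.44 in siCHD5, so the 2 groups of sequences differed in their highest peaks more than at the median.

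Haplotype peaks were shared between the 2 long lists at 39 regions. These were 39 of 52 siNC peaks (75.0%, 61.1% to 86.0%) and 39 of 70 siCHD5 peaks (55.7%, 43.3% to 67.6%), beside the 85.4% and 74.5% of the whole lists given above. The siCHD5 interval leaves out the value of its list, and the siNC interval holds it. Both take peaks as independent, while 43 of the siNC and 56 of the siCHD5 peaks lay on versions of 1 region. They are therefore too narrow to decide on a difference from the list. The part of the lower summit depth of haplotype peaks in these shares was not tested. Regions in siNC alone numbered 13 and in siCHD5 alone 31, of 83. Unlike on unplaced and random sequences, the overlapping siNC peaks had a median fold near that of the rest, 6.54 against 6.29, and in siCHD5 the medians were 7.10 and 6.05.

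In regions common to siNC and siCHD5 the siCHD5 fold was the higher one somewhat more often in both classes. It was higher in 24 of 39 haplotype regions and in 19 of 31 unplaced or random regions, against 60.3% of 23864 regions on the chromosomes. The median log2 ratio of siCHD5 to siNC fold was 0.09 on haplotypes, 0.14 on unplaced or random sequences and 0.13 on the chromosomes. Both classes were thus near the background of the chromosomes, and the comparison shows no difference particular to them.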

How the data were processed

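The 36 libraries named in the labels are 18 TET1 pull-downs and 18 inputs. Per the labels' protocols, sonicated nuclei were precipitated, fragments of 200 to 500 bp selected and 18 PCR cycles run. MACS2 2.1.2, Bowtie2 2.3.4, deepTools 3.5.0, bedtools 2.25.0, SAMtools 1.9, FastQC 0.11.7 and hg19 are named, without roles, per the submitters' processing notes. Not given in the sources used here are their settings and how reads with several matches were placed. The authors deposited 1 peak list per siRNA, taken as called on pooled replicates. Its fold enrichment is a ratio to the control background, its −log10 p and −log10 q refer to the summit, and its deposited score is 10 times −log10 q, truncated (9 peaks differed).

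From these, peaks were classed by sequence name (pandas 2.3.3), and overlaps of 1 bp or more were found with bedtools 2.31.1. Pull-down fragments and control background were solved from the authors' fold and −log10 p with a pseudocount of 1 and a tolerance of 0.02. The background thus stands on the scale of the pull-down and is not a count of input fragments. Shares carry exact Clopper-Pearson 95% intervals (scipy 1.17.1), and a count of 0 allows 3 counts. These steps were tested on simulated data. Read totals were not analysed here, so depth is known only through these recovered values. With 1 list per siRNA there is no test between groups. The members and lists were chosen with earlier results of these data known. Regions were named by rule: on chrM the 3 of highest fold, the 3 widest, the first and the last in each list; elsewhere the 3 of highest fold and the widest in each list and those in 4 lists or more. All 13 mitochondrial stretches, the chromosome 1 stretch and the highest siCHD5 peak on a chromosome 6 haplotype were added after their values were seen. Coordinates are on hg19, counted from 1. No hg19 genome or annotation was used here, so no sequence and no gene position is given. Alternatives were a stricter −log10 q of 5, fold minimums of 1.5 and 4, distinct intervals, an overlap of 50% and windows of 200 bp around summits.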

Additional observations from a re-analysis of the deposited data

How the results depend on the processing

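Counting distinct intervals in place of summits gave 16, 12, 12 and 15 mitochondrial intervals in siCHD3, siCHD4, siMBD2 and siMBD3, with a median width of 363.5 bp in siCHD4 and 451 bp in siMBD2. A fold minimum of 1.5 left 0 mitochondrial peaks in all 4 lists, and one of 4 also left 0. On unplaced or random sequences a minimum of 1.5 left 8 peaks in siCHD3 and 5 each in siCHD4, siMBD2 and siMBD3. A minimum of 4 left 31 in siNC, 35 in siCHD5, 0 in siCHD3 and siCHD4 and 2 each in siMBD2 and siMBD3. A −log10 q of 5 or more left 7 unplaced or random peaks in siCHD3 and 5 in siMBD2, and the siMBD3 median width in that class became 475 bp. An overlap of 50% of both peaks lowered the siMBD2 mitochondrial share found in any other list to 83.3%, and that found in siCHD4 to 53.3%. With a −log10 q of 5 or more in both lists, the siMBD3 share of unplaced or random peaks found in siNC was 0%. The 12 median folds stayed within 1.5 times over distinct intervals. Mitochondrial coverage was 6933 to 8408 bp with the stricter q and 7707 to 10108 bp with 200 bp on either side of summits. No paired analysis was possible because each list pools its 3 replicates, and no replicate could be left out for the same reason. Control depth limits what folds near 1 can show, and the short lists limit shares.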
